A study of Mus musculus with 4 samples.

Results

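The small leucine-rich proteoglycans are secreted proteins of the extracellular matrix, and 10 of their genes were followed in mouse bladder: Dcn, Lum, Bgn, Fmod, Ogn, Prelp, Aspn, Omd, Kera and Podn. They were found by gene symbol in the annotation of the array's probes. All 10 had at least 1 probe, 14 probes in all, among 15366 named genes. Each gene is represented by its brightest probe, judged by the mean of the 4 arrays, and the other probes of Dcn and Ogn are given beside it. Bladders of male mice on a normal diet had undergone a sham operation (2 arrays) or partial bladder outlet obstruction, in which the outlet is narrowed so that voiding meets more resistance, and the obstructed bladders were labelled 14 days (2 arrays). Strain, age and the time of the sham bladders are not in the labels. Nor is it stated that the arrays are separate animals, so p-values reflect only the spread between arrays, which may be technical. Whole bladder holds smooth muscle, connective tissue, urothelium and vessels together.

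Small leucine-rich proteoglycans have a curved core of leucine-rich repeats that binds collagen, and many carry chains of chondroitin, dermatan or keratan sulfate. Bound to the surface of collagen fibrils they regulate how fibrils grow and space themselves, and several also bind growth factors such as transforming growth factor beta. In most organs they are made mainly by fibroblasts, with a part from smooth muscle. The family is divided into classes, of which Dcn, Bgn and Aspn belong to class I, Lum, Fmod, Prelp, Kera and Omd to class II, Ogn to class III and Podn to class V.

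Values are log2 intensities as deposited, so that 1 unit is a 2-fold difference, and they cannot be compared between probes. The median of all probes was 5.80. Between arrays, the correlation over all probes was 0.989 for the sham pair and 0.969 for the obstructed pair. Against sham arrays 1 and 2 in turn, obstructed array 1 reached 0.982 and 0.981, and obstructed array 2 reached 0.961 and 0.962. Obstructed array 1 was thus more like either sham array than like its own replicate, while obstructed array 2 was most like obstructed array 1. All 11 measured secretory genes of the male accessory glands were higher in both obstructed arrays than in either sham array. Summed on the linear scale, they came to 4282 and 517 in the sham arrays, 11490 in obstructed array 1 and 243577 in obstructed array 2. The gap between the sham sums lay mostly in 1 gene, Sbp, which measured 11.91 and 5.89 in sham. Obstructed array 2 therefore stood apart, and results are also given with each obstructed array alone. All 8 smooth muscle markers and 5 of the 7 measured urothelial markers had means above the median of all probes.

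None of the 10 proteoglycan genes passed the test between obstructed and sham bladders. The test was limma's moderated test with Benjamini-Hochberg adjustment over the 15366 genes, in which an adjusted p below 0.05 was called, and it called 0.0521% of all genes. Its members differed in both directions. Aspn was 2.01-fold higher after obstruction, while Omd, Lum and Ogn were 1.75-fold, 1.72-fold and 1.63-fold lower, and these 4 had an unadjusted p below 0.05, against 8.14% of all genes (3.05% higher and 5.09% lower). In 6 of the 10 genes the obstructed and sham arrays did not overlap, 2 being higher (Aspn and Podn) and 4 lower (Omd, Lum, Ogn and Kera), against 39.2% of all genes (17.6% higher and 21.6% lower). The members were chosen with earlier results of these data known, so setting them against these shares is not an independent comparison. In all, 5 genes had a higher mean and 5 a lower mean. The median change of the family was -0.10 on the log2 scale, and that of all genes -0.02. In bulk tissue, fewer cells of a type and less RNA per cell cannot be told apart.

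**Figure D1:**
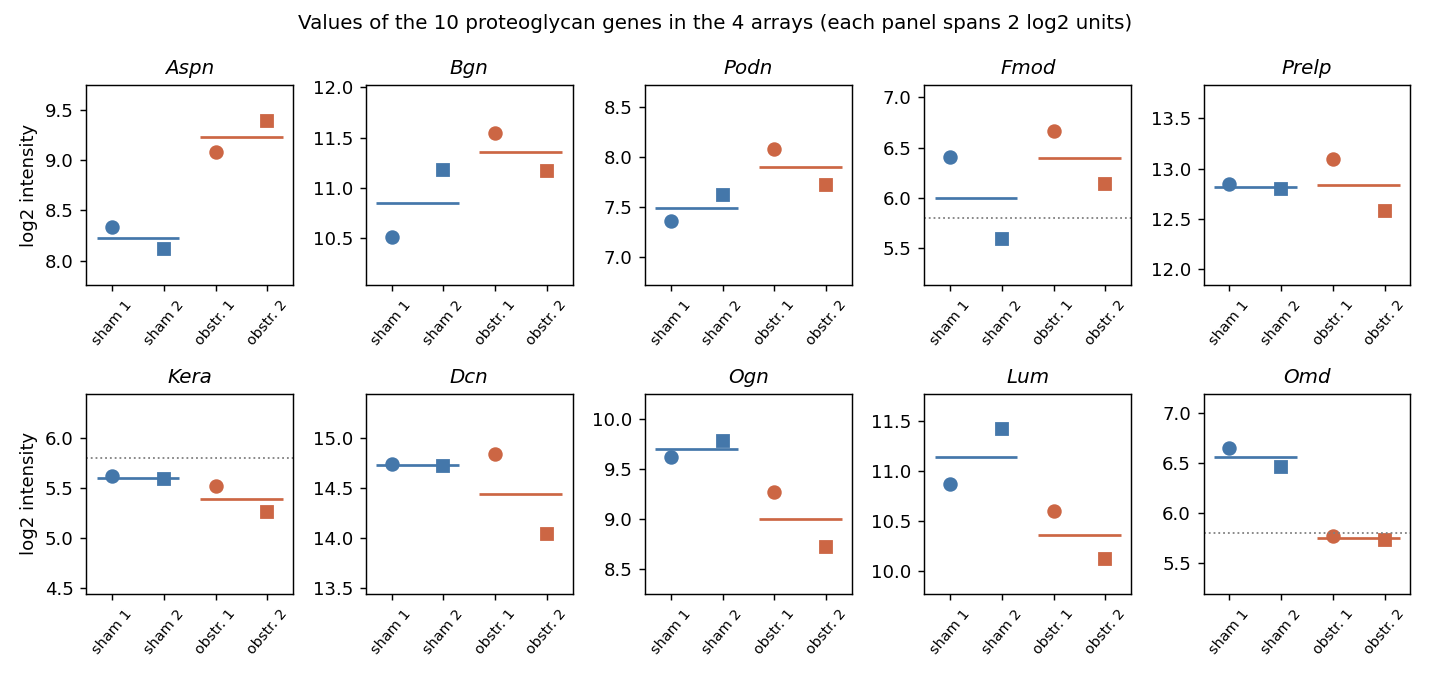
Log2 intensity of each proteoglycan gene (1 panel per gene, each spanning 2 log2 units) in sham arrays (blue) and obstructed arrays (orange), with circles for replicate 1, squares for replicate 2, a line at each group's mean and a dotted line at the median of all probes where it falls within the panel. Aspn lies higher in both obstructed arrays, Omd, Lum and Ogn lie lower in both, and Dcn is lower in obstructed array 2 alone.

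Aspn, Omd and Ogn stand in a row, in this order, on chromosome 13. By their brightest probes Aspn was higher and Omd and Ogn lower, although none of them passed the test. The second Ogn probe overlapped between the groups, with a log2 change of -0.25 (SE 0.30). Their start regions are shown because neighbouring genes differed in opposite directions. Each window runs 5′ to 3′ on the gene's strand, from 250 bases before to 50 bases after the start in the RefSeq annotation of GRCm38.p6, all on the plus strand: chr13:49544193-49544492 for Aspn, chr13:49582212-49582511 for Omd and chr13:49607765-49608064 for Ogn. Capitals mark matches to the 6 motifs searched, which fell on TATAAA on either strand in the windows of Aspn and Ogn and on GGAATG in that of Ogn.
Aspn: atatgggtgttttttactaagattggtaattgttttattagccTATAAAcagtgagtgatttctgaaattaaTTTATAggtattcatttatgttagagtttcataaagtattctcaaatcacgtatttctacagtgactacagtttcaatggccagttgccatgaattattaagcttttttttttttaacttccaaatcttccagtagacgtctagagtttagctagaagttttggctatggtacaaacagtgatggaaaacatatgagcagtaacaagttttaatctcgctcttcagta
Omd: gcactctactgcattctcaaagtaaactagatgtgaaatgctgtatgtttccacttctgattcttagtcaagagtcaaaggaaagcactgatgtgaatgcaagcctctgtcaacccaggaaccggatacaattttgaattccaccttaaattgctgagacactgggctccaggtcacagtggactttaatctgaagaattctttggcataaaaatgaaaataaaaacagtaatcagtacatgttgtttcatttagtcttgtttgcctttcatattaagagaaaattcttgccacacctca
Ogn: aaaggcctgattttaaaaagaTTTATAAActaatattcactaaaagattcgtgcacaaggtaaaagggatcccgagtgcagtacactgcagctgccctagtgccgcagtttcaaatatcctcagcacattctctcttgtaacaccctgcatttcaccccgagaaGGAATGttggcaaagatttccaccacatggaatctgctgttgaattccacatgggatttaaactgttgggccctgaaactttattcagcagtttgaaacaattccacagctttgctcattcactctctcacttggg

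The motifs were searched on both strands in the windows of the 8 proteoglycan genes that RefSeq's table of starts held, which leaves out Dcn and Lum. TATAAA, the core of a TATA box, was in the windows of Aspn and Ogn and in 13.6% of all 32851 windows. Counted from the upstream end of the window, the Aspn matches lie at bases 44 to 49 and 73 to 78. The Ogn match is 2 overlapping matches on opposite strands, at bases 22 to 27 and 24 to 29. All of them lie nearer the upstream end of the window than the start of the gene. Whether any of them acts as a TATA box was not tested. GATAA, the core bound by GATA factors, which the series title names, was in the window of 1 gene, Fmod, against 25.4% of all windows. GGAATG, the core bound by TEAD factors, was in the window of Ogn and in 14.7% of all windows. No match was found in the 8 genes' windows for the NF-kB site (8.46% of all windows), for TGANTCA, the core bound by AP-1 (7.81%), or for the CArG box bound by serum response factor (1.63%). These matches describe the letters of the windows and no binding was measured.

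Aspn encodes asporin, a class I relative of decorin that binds collagen and has been shown to bind transforming growth factor beta. In sham it measured 8.33 and 8.12, and after obstruction 9.08 and 9.39 (probe 2450021). Both obstructed arrays lay above both sham arrays, and the gap between groups was larger than the gap of either pair. The mean went from 8.22 ± 0.15 to 9.23 ± 0.22 (SD, n = 2), and the log2 change was 1.01 (SE 0.22, 95% interval 0.47 to 1.55), for which limma gave an adjusted p of 0.321. Against the sham mean, Aspn was 0.86 higher in obstructed array 1 and 1.16 higher in obstructed array 2. Fits with 1 obstructed array alone take their spread from the sham pair, and their counts are given under Omd below.

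Omd encodes osteomodulin, also called osteoadherin, a keratan sulfate proteoglycan best known from bone, where it binds cells through an integrin. In sham it measured 6.65 and 6.46, and after obstruction 5.77 and 5.73 (probe 6110044). The 2 obstructed values were nearly equal and lay just under the median of all probes, so that the difference may be understated. The log2 change was -0.80 (SE 0.14, 95% interval -1.14 to -0.46), with a limma adjusted p of 0.201, the lowest in the family. Omd was called with either obstructed array alone against the sham arrays, with a limma adjusted p of 0.0344 for obstructed array 1 and 0.00788 for obstructed array 2, although not with all 4 arrays together. Such 3-array fits take the spread from the sham pair and assume it for the single obstructed array. The share of all genes called was 2.1% with obstructed array 1 alone and 8.45% with obstructed array 2 alone, against 1 and 5 of the 10 proteoglycan genes.

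Ogn encodes osteoglycin, or mimecan, a class III member that binds collagen and is found in vessel walls and muscle. Its brighter probe (3710326) measured 9.62 and 9.78 in sham and 9.27 and 8.72 in obstructed arrays. The obstructed arrays lay below the sham arrays and differed from each other by more than the sham pair did. Its log2 change was -0.70 (SE 0.26, 95% interval -1.33 to -0.08, limma adjusted p = 0.567). The other Ogn probe (3800193) is named for the same transcript and measured 9.15 and 9.74 in sham and 9.47 and 8.93 in obstructed arrays, where the groups overlapped, with a log2 change of -0.25 (SE 0.30). By the brighter probe the change was -0.98 with obstructed array 2 alone and -0.43 with obstructed array 1 alone.

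**Figure D2:**
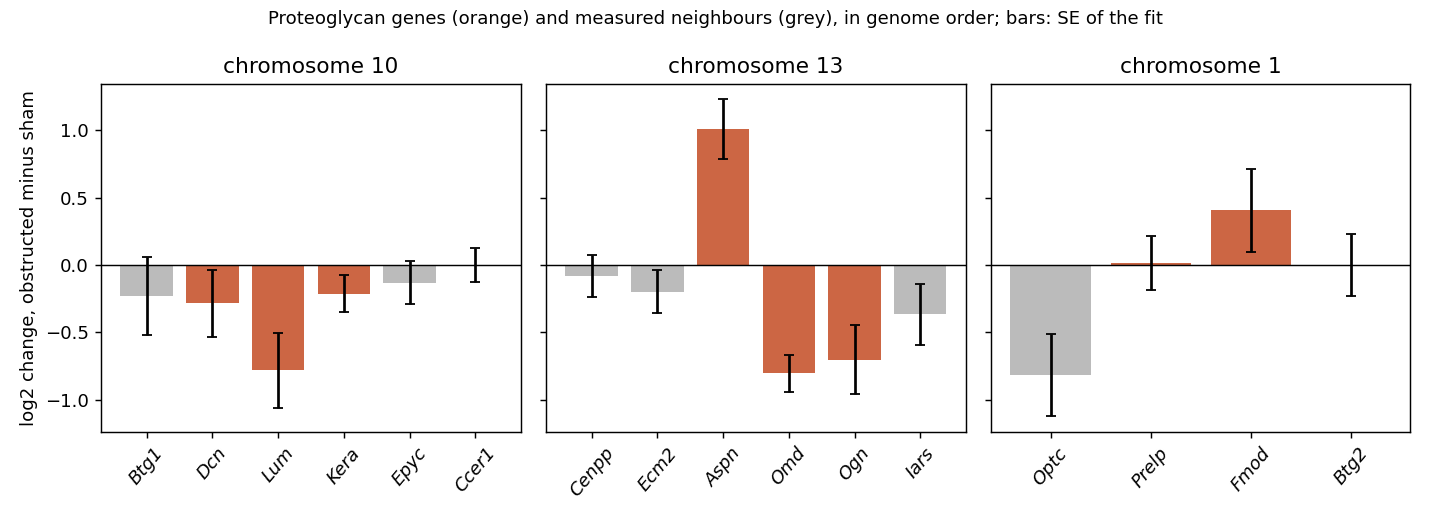
Log2 change (obstructed minus sham, bars, with the standard error of the fit) of the proteoglycan genes (orange) and of measured neighbouring protein-coding genes (grey) in genome order on chromosomes 10, 13 and 1. On chromosome 13 Aspn, at 1.01, stands beside Omd at -0.80 and Ogn at -0.70.

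The next gene before Aspn is Ecm2, which encodes a related leucine-rich matrix protein, and it differed by -0.20 (SE 0.16). Lum stands on chromosome 10 between Dcn and Kera, followed by the class III gene Epyc, and on chromosome 1 the class III gene Optc stands before Prelp and Fmod. None of these neighbours passed the test, and differences between neighbours were not tested against each other.

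Lum encodes lumican, a class II keratan sulfate proteoglycan needed for regular collagen fibrils in cornea and skin of mice. Its values were 10.87 and 11.42 in sham and 10.60 and 10.13 in obstructed arrays (probe 5420079). The groups did not overlap, but the sham arrays differed from each other by 0.55, more than the 0.27 between the lower sham and the higher obstructed array. Lum had a log2 change of -0.78 (SE 0.28, 95% interval -1.47 to -0.10, limma adjusted p = 0.555). It was lower than the sham mean by 0.55 in obstructed array 1 and by 1.02 in obstructed array 2.

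Dcn encodes decorin, the best studied member, which binds type I collagen and transforming growth factor beta, and its brightest probe (5340026) lay above 99.7% to 99.9% of the probes, depending on the array. That probe measured 14.73 and 14.72 in sham and 14.84 and 14.04 in obstructed arrays. Obstructed array 1 was slightly above both sham arrays, and obstructed array 2 was 0.68 below their mean. The log2 change was -0.29 (SE 0.25, limma adjusted p = 0.814), and it was 0.11 without obstructed array 2. The direction of Dcn thus rested on 1 array.

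The 3 dimmer probes of Dcn are named for the same transcript and were likewise highest in obstructed array 1 and lowest in obstructed array 2, with a wider gap. Probe 510332 measured 14.08 and 14.08 in sham and 14.09 and 12.80 in obstructed arrays. Probe 5900711 measured 11.45 and 11.58 in sham and 11.75 and 9.76 in obstructed arrays, and probe 6550092 measured 8.13 and 7.91, then 8.36 and 6.74. Obstructed array 2 lay 1.28, 1.75 and 1.28 below the sham means of these probes, against 0.68 for the brightest probe. The size of the Dcn difference therefore depended on the probe, and none of the 4 probes passed limma's test over all probes, the lowest adjusted p being 0.712.

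**Figure D3:**
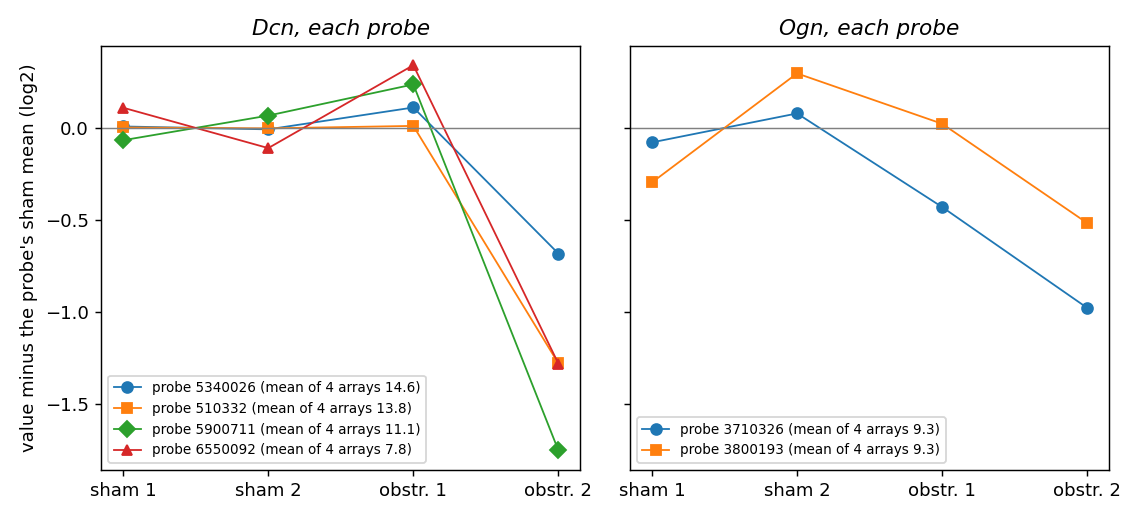
Value minus the probe's own sham mean (log2) in the 4 arrays for each probe of Dcn (left) and Ogn (right), with lines joining the values of 1 probe. All 4 Dcn probes lie near 0 or above in obstructed array 1 and between 0.68 and 1.75 below 0 in obstructed array 2, while the Ogn probes differ from each other in obstructed array 1.

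Bgn encodes biglycan, the closest relative of decorin, which carries chondroitin or dermatan sulfate chains and, when released from the matrix, can signal through Toll-like receptors. It measured 10.51 and 11.18 in sham and 11.54 and 11.17 in obstructed arrays (probe 4730176). Obstructed array 2 lay just under the higher sham array, so the groups overlapped, and the sham pair differed by 0.67. The log2 change of 0.51 (SE 0.28, 95% interval -0.18 to 1.21) had a limma adjusted p of 0.707, and it was 0.18 without sham array 1 and 0.85 without sham array 2.

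Podn encodes podocan, a class V member that binds type I collagen and, in mice, restrains growth of vascular smooth muscle. It measured 7.36 and 7.62 in sham and 8.08 and 7.72 in obstructed arrays (probe 3710068). The groups did not overlap, although obstructed array 2 was only 0.10 above the higher sham array. The log2 change was 0.41 (SE 0.21, limma adjusted p = 0.691), and Podn was higher than the sham mean by 0.59 in obstructed array 1 and 0.23 in obstructed array 2.

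Prelp encodes a proline- and arginine-rich member thought to link basement membranes to collagen. It measured 12.85 and 12.79 in sham and 13.09 and 12.58 in obstructed arrays (probe 5900390), so that the obstructed arrays lay on either side of a narrow sham pair. The log2 change was 0.02 (SE 0.20), and the 95% interval ran from -0.48 to 0.51. Fmod encodes fibromodulin, which binds the same collagen site as lumican, and measured 6.40 and 5.58 in sham and 6.67 and 6.13 in obstructed arrays (probe 540577). The sham arrays of Fmod differed by 0.82, more than the log2 change of 0.41 (SE 0.31, limma adjusted p = 0.780). Kera encodes keratocan, a proteoglycan of the cornea, and lay in all 4 arrays under the all-probe median, with 5.62 and 5.59 in sham and 5.52 and 5.27 in obstructed arrays (probe 6350136). Its values say little, and its log2 change was -0.21 (SE 0.14).

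**Figure D4:**
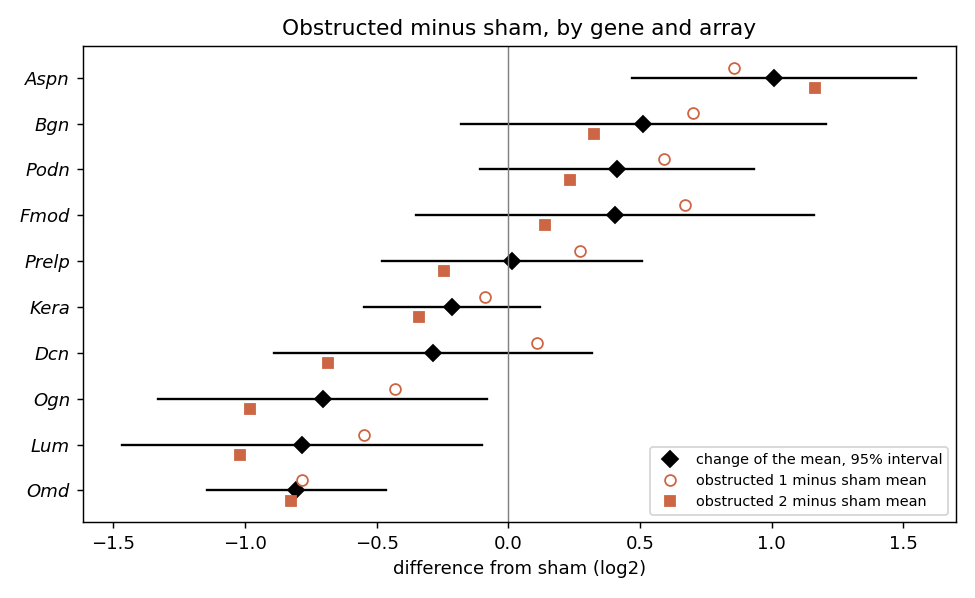
Log2 difference from sham for each proteoglycan gene, with the change of the group mean and its 95% interval (diamond and line) and the difference of obstructed array 1 (open circle) and obstructed array 2 (filled square) from the sham mean. The intervals of Aspn, Omd, Lum and Ogn leave out 0, and obstructed array 2 lies to the left of obstructed array 1 in every gene but Aspn.

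Obstructed array 2 was lower than obstructed array 1 in 9 of the 10 genes, all but Aspn, while this was so for 53.8% of all genes and for 56% of genes with a mean above the median of all probes. The gap was largest for Dcn at 0.79 and smallest for Omd at 0.04. As a family, the median difference from the sham mean was 0.19 in obstructed array 1 and -0.29 in obstructed array 2. This split was not particular to the family. The medians were 0.25 and -0.23 for the list of fibrillar collagens and their partners described below, and 0.42 and -1.02 for macrophage markers. The keratan sulfate synthesis list, at -0.11 and -0.0003, did not share it, nor did all genes, at -0.002 and -0.03.

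Marker lists of cell types differed in how far obstructed array 2 lay from array 1. Of 10 fibroblast markers 9 were measured, all above the median of all probes, and their summed linear level was 32788 and 36242 in sham and 34373 and 28062 in obstructed arrays. Their median difference from sham was 0.05 in obstructed array 1 and -0.62 in obstructed array 2. These markers went both ways, with 2 (Mfap5 and Pi16) above both sham arrays in each obstructed array, 4 (Gsn, Dpt, Col1a2 and Col3a1) below, and 3 overlapping. From the sham mean, Mfap5 differed by 1.29 and 0.48 in obstructed arrays 1 and 2, and Gsn by -1.01 and -1.31. The 8 smooth muscle markers summed to 91395 and 110184 in sham and 91588 and 62958 in obstructed arrays. Accessory gland genes, at their highest in obstructed array 2, are given above. The 6 measured adipocyte markers summed to 2188 and 1099 in sham and 306 and 333 in obstructed arrays, with Plin1 and Retn under the median of all probes. The sham sums came mostly from Adipoq, at 10.56 and 9.44. Of the 6, 4 lay below both sham arrays in each obstructed array, while Fabp4 (-0.14) and Retn (0.06) overlapped. The urothelial medians were 0.00 and 0.07 in obstructed arrays 1 and 2, and those of skeletal muscle -0.71 and -0.37. The part of these cell types and tissues in the values of the proteoglycan genes was not tested.

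**Figure D5:**
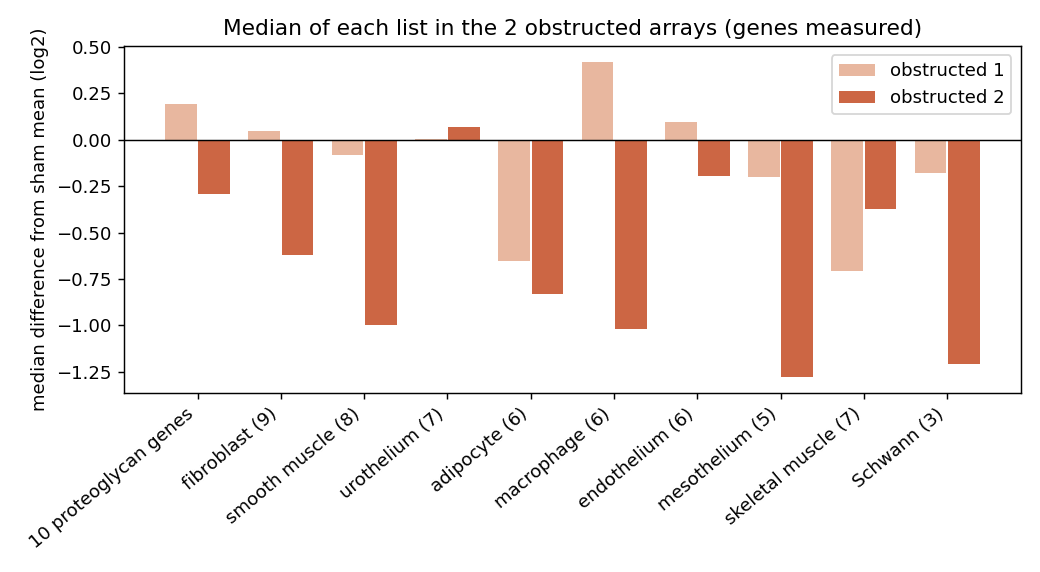
Median log2 difference from the sham mean, over the genes of each list, in obstructed array 1 (light) and obstructed array 2 (dark), for the 10 proteoglycan genes and 9 marker lists with the number of genes measured in brackets. The proteoglycan genes sit at 0.19 and -0.29 and the fibroblast markers at 0.05 and -0.62, and the accessory gland list, at 3.26 and 9.00, is left out of the plot.

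Of the less studied relatives, 6 of 9 were measured and 0 passed limma's test over all genes, while an unadjusted p below 0.05 was reached by 1 that was higher and 1 that was lower. Chad, which encodes the cartilage protein chondroadherin, measured 6.05 and 6.15 in sham and 7.04 and 6.86 in obstructed arrays, a log2 change of 0.85 (SE 0.15, adjusted p = 0.201). Optc, which encodes opticin, known from the vitreous of the eye, measured 8.78 and 9.52 in sham and 8.50 and 8.17 in obstructed arrays (-0.82, SE 0.30). In Chad and Optc, picked for their small p, the groups did not overlap, as in 39.2% of all genes. For this list and those below, the share of all genes with an unadjusted p below 0.05 was 8.14% (3.05% higher and 5.09% lower).

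Among the collagens to which these proteins bind, the changes of the 9 measured chain genes, by their brightest probes, ran from -0.41 for Col1a2 to 0.08 for Col6a2. A dimmer Col3a1 probe differed by -0.71 (SE 0.34). Dimmer Col6a1 probes differed by -0.18 and -0.51 (SE 0.27 and 0.31), and a dimmer Col5a2 probe by 0.08. Of 22 genes of fibrillar collagens and their partners, 19 were measured, 0 passed limma's test over all genes, and an unadjusted p below 0.05 was reached by 2, both higher. These were the genes of collagen cross-linking enzymes Lox, at 10.17 and 10.36 in sham and 11.20 and 11.17 in obstructed arrays (0.92, SE 0.19, adjusted p = 0.302), and Loxl2, at 9.99 and 10.19 in sham and 11.25 and 10.88 in obstructed arrays (0.97, SE 0.22). A dimmer Loxl2 probe differed by 0.25. Loxl1 differed by 0.77 (SE 0.33), Loxl3 by -0.15 and Loxl4 by -0.13, and the collagen-associated genes Tnxb and Dpt by -0.82 and -0.75. The list median was -0.05, with 0.25 in obstructed array 1 and -0.23 in obstructed array 2.

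Enzymes that build the sugar chains were measured as well. Of 22 genes of chondroitin and dermatan sulfate synthesis, 17 were measured and 0 passed limma's test, 1 of each direction having an unadjusted p below 0.05. Ust, which adds sulfate to uronic acid of these chains, measured 8.15 and 8.11 in sham and 7.65 and 7.65 in obstructed arrays (-0.49, SE 0.18). A dimmer Ust probe, under the median of all probes, differed by 0.08. Fam20b, the kinase that phosphorylates the linker xylose, differed by 0.59 (SE 0.25), and Xylt1, which starts the chain, by 0.33 at values under the median of all probes. All 10 genes of keratan sulfate synthesis were measured, 0 passed limma's test, and 1 was lower with an unadjusted p below 0.05. That gene was Chst1, a keratan sulfotransferase, with 9.71 and 9.59 in sham and 9.21 and 8.42 in obstructed arrays (-0.83, SE 0.30), while Chst4 and Chst5, both under the median of all probes, differed by -0.22 and -0.18.

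Among 16 genes of large proteoglycans and hyaluronan partners, all measured, 0 passed limma's test and 1 was lower at an unadjusted p below 0.05, Spock2 (-0.54, SE 0.16), whose mean was under the median of all probes. Vcan, which encodes the large proteoglycan versican, differed by 0.59 (SE 0.29), and the dim link protein gene Hapln3 by 0.23. Dimmer Vcan probes differed by 0.06 and -0.21. Of 21 proteases that can act on small proteoglycans or their precursors, all were measured, 0 passed limma's test, and 2 of each direction had an unadjusted p below 0.05. The macrophage elastase gene Mmp12 measured 6.15 and 6.32 in sham and 8.58 and 7.92 in obstructed arrays, a log2 change of 2.02 (SE 0.25, adjusted p = 0.104). The gelatinase gene Mmp9 measured 9.21 and 8.97 in sham and 7.74 and 7.41 in obstructed arrays (-1.51, SE 0.22, adjusted p = 0.149), and Adamts8 differed by 1.12 (SE 0.32). In these 3 genes, picked for the smallest p of their list, the groups did not overlap, as in 39.2% of all genes. Dimmer probes of Mmp12 and Adamts8, under the median of all probes, differed by -0.01 and -0.02.

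All 23 genes of ligands, receptors and other proteins known or thought to interact with members of the family were measured and 0 passed limma's test, 2 of each direction having an unadjusted p below 0.05. The matricellular genes Ccn4 and Ccn2 were higher by 1.35 (SE 0.20, adjusted p = 0.149) and 1.32 (SE 0.30). Ccn4 measured 6.88 and 7.17 in sham and 8.47 and 8.29 in obstructed arrays, and a dimmer Ccn4 probe differed by 0.38. Tgfbr3, which encodes betaglycan, a coreceptor of transforming growth factor beta, measured 11.13 and 11.35 in sham and 10.72 and 10.24 in obstructed arrays (-0.76, SE 0.24). No list was tested as a set.

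Aspn had the largest absolute change of the family among genes above the median of all probes, and 3 other genes were named for the most similar profile, measured as the root mean square distance between values centred on each gene's mean over the 4 arrays. They were Retreg1, a receptor for autophagy of the endoplasmic reticulum, at a distance of 0.03 log2 units, Creld2, a secreted factor of endoplasmic reticulum stress, at 0.06, and the keratin gene Krt23 at 0.06. They were higher by 0.97, 0.97 and 1.01. Within the family the nearest to Aspn was Podn, at a distance of 0.42, and the farthest was Lum, at 0.98. With 4 arrays such likeness describes the profiles alone.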

How the data were processed

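Total RNA of male mouse bladder was measured in 2 sham and 2 obstructed samples and was labelled with biotin for Illumina arrays, per the labels' protocols. The deposited table holds log2 intensities for 46657 probes. The log2 scale is judged from the range of 4.14 to 15.63, and the authors' background correction, normalization and detection filter are not stated in the labels or the table. The sorted values of the arrays differed by at most 0.0252, which is what quantile normalization leaves. Probes were named from the platform annotation (22380 with 1 symbol, 24277 unnamed, all gene numbers found in RefSeq's gene table), and the brightest probe per gene was used, 15366 genes in all.

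The 2 groups were compared with limma 3.58.1 (R 4.3.3), obstructed minus sham, two-sided, with a trend of variance on mean and no filter, and 6.04 degrees of freedom per gene. The number of arrays limits the precision: in 5 simulations of obstructed against sham over 15366 genes, 21.2% of genes changed 2-fold and 87.2% of those changed 4-fold were called. The simulations drew an equal spread for both groups from limma's fit, with 100 genes changed per fold size. They do not model an obstructed array that stands apart, so these shares may not hold for these data. Named were all proteoglycan genes, from each other non-marker list the called genes and the 3 with the smallest p, and the 3 nearest profiles. Members and lists were chosen with earlier results of these data known. Alternatives were quantile normalization, median centring, a floor of 50, a filter on dim genes, the mean of all probes, single probes, other variance models, a replicate block and each array left out. The labels name no slide or scan batch. Figures were made with matplotlib 3.10.9.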

Additional observations from a re-analysis of the deposited data

How the results depend on the processing

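With all 4 arrays, 0 of the 10 proteoglycan genes were called under any alternative of normalization, floor, filter, probe or variance model, while the number of genes called over the whole table went from 8 to 0 with a floor of 50, 3 with dim genes left out and 17 with a robust trend. Quantile normalization and median centring could hardly change any value, because the sorted values of the arrays already differed by at most 0.0252. With the replicate number as a block 1 gene was called and 0 proteoglycan genes. Nothing in the labels says that equal numbers mark a pair. When arrays were left out one at a time, the number of genes called ran from 0 to 1299 and that of proteoglycan genes from 0 to 5. The 5, without obstructed replicate 1, were Dcn, Lum, Ogn, Aspn and Omd, and the 1 without obstructed replicate 2 was Omd. Both 0 counts came from leaving out a sham array. The direction turned in 3 genes with an array left out, where the log2 change ran from -0.68 to 0.11 for Dcn, from -0.0031 to 0.82 for Fmod and from -0.24 to 0.27 for Prelp. Kera differed by 0 with the floor, which lay above all its values, and it was not tested with dim genes left out. Directions of Aspn, Bgn, Podn, Lum, Ogn and Omd held in every alternative run. Averaging all probes took Dcn to -0.54 and Ogn to -0.48. Without detection calls, a difference of a dim probe is limited by background that could not be measured.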

Other observations

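Some other matrix genes were picked after their values were seen. Of these, Tnxb, Dpt and Mfap5 also differed between the 2 obstructed arrays, while Col3a1 differed little by its brighter probe. Tnxb, which encodes the matrix glycoprotein tenascin-X, measured 10.42 and 10.34 in sham arrays, 10.44 in obstructed array 1 and 8.66 in obstructed array 2. Dpt, which encodes dermatopontin, a small protein that binds decorin, measured 10.26 and 10.19 in sham and 9.93 and 9.00 in obstructed arrays. Col3a1, a chain of fibrillar collagen, measured 14.25 and 14.28 in sham and 14.15 and 14.04 in obstructed arrays. A dimmer Col3a1 probe measured 7.98 and 8.93 in sham and 7.92 and 7.58 in obstructed arrays. Mfap5, a protein of elastic microfibrils, was above both sham arrays in each obstructed array, at 8.73 and 8.74 in sham and 10.03 and 9.22 in obstructed arrays. None of these 4 genes passed limma's test, with adjusted p-values of 0.740 for Tnxb, 0.642 for Dpt, 0.725 for Col3a1 and 0.546 for Mfap5.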
